A study of Mus musculus with 8 samples.

Results

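Of 12830 genes counted in AML410 leukaemia cells, 90 (0.701%) dipped at day 4 of doxycycline (Dox), to a level below both untreated and day 6 cells. They were chosen from CPM (a gene's counts relative to the depth of its library) computed with TMM factors over all 8 libraries. The untreated mean and the day 6 mean each had to be at least 1.4 times the day 4 mean, both day 4 libraries had to lie below all untreated and day 6 libraries, and the highest of the 4 group means had to reach 5 CPM. The fall to day 4 and the higher level at day 6 are therefore given by the choice. The day 2 libraries entered it only through the scaling and the minimum level, and 3 members (Tmem132e, Il7r and Snn) reached that level at day 2 alone. AML410 is a mouse acute myeloid leukaemia with a monosomal karyotype that is p53-/- and carries a hairpin against PU.1 (shPU.1) linked to green fluorescent protein (GFP). RNA came from GFP-sorted bone marrow cells of leukaemic C57BL/6 recipients. The groups were untreated (GFPhigh), Dox for 2 days (GFPhigh-mid), Dox for 4 days (GFPmid) and Dox for 6 days (GFPlow), with 2 libraries each. Dox shuts the hairpin and GFP down, so time on Dox and the GFP gate cannot be told apart. All 4 groups carry the same genotype and come from the same leukaemia. The titles call the libraries of a group technical replicates, whereas the design note speaks of duplicate mice, so every p-value rests on the spread between these 8 samples alone, and that spread may be technical.

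The Spi1 gene encodes PU.1, which drives myeloid differentiation as a transcription factor and is also needed early in the B cell lineage. Immature B cells are marked by the surrogate light chain and the CD79 signalling chains, and red cell precursors by globins and the anion exchanger band 3. Recipients of a transplanted leukaemia keep marrow cells of their own.

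The libraries held 9262047 to 11213292 counts. Spi1 had mean levels of 10.6 CPM (untreated), 15.2 CPM (day 2), 98.4 CPM (day 4) and 223 CPM (day 6), with n = 2 each. Primary granule genes, a myeloid mark, summed to between 19468 and 27270 CPM in every library. Day 2 replicate 1 stood apart from the other 7 libraries, since a single gene took 13.3% of its counts against at most 0.149% elsewhere. For that reason the day 2 values below are given per library.

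All 90 members passed the filter on low counts. By edgeR's quasi-likelihood test (adjusted p under 0.05), 67 of the 90 (74.4%) were lower at day 4 than in untreated cells, against 22% of all 12330 genes tested, and 57 (63.3%) were higher at day 6 than at day 4, against 15.9% of all genes. These contrasts chose the members, so nothing is read from the counts. Both calls held for 50 members and neither for 16. Nearest inside the limit by the smaller of their ratios were Abca13 (1.403), Traf4 (1.404) and Erich5 (1.408). Nearest outside it were Thap4 (1.39), Prmt9 (1.39) and Cd274 (1.39).

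**Figure D1:**
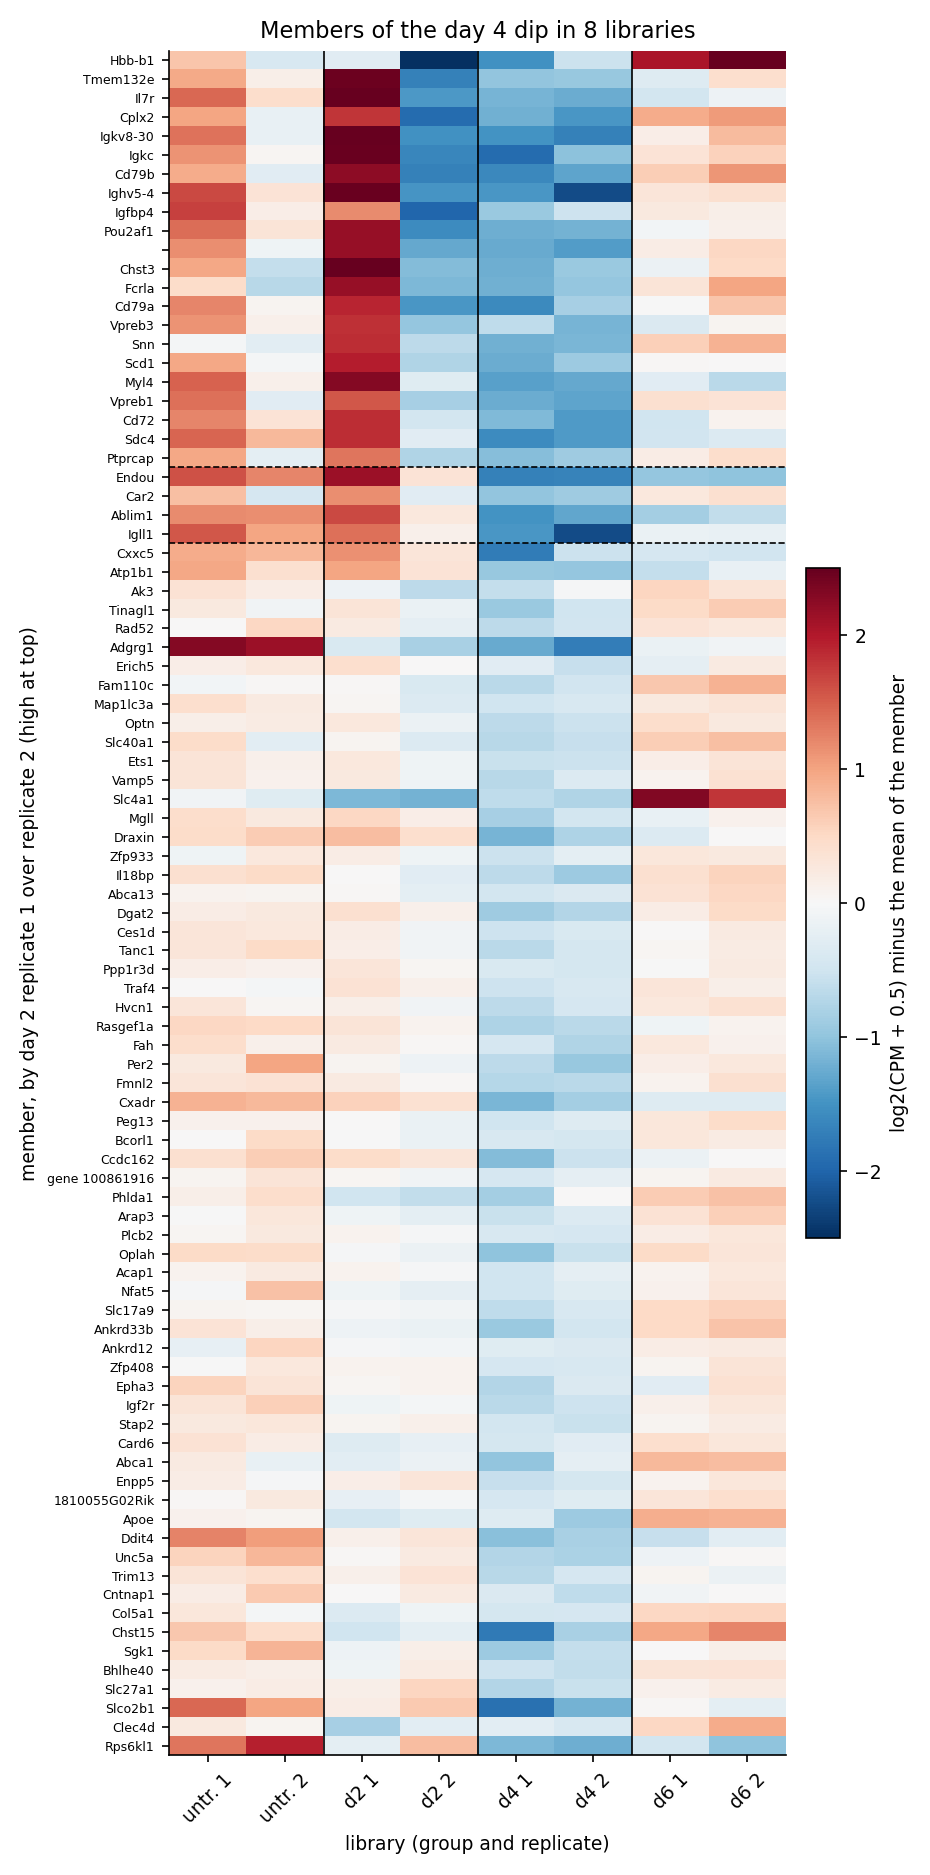
The 90 members (down the page, by the ratio of day 2 replicate 1 to day 2 replicate 2) in the 8 libraries, as log2(CPM + 0.5) minus the member's own mean over the libraries, with colours cut off at 2.5 either way. Dashed lines separate the 22 members at a ratio of 4 or more, 4 members at 2 to 4 and 64 members under 2. Apart from Hbb-b1, the top block is red in day 2 replicate 1, and it is blue in day 2 replicate 2, and the bottom block shows no such split.

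The day 2 libraries, on whose pattern the rule set no condition beyond the level, divided the members. In 22 of 90 (24.4%) day 2 replicate 1 held at least 4 times the CPM of day 2 replicate 2, against 1.35% of all genes tested. All 22 were also higher in untreated replicate 1 than in untreated replicate 2, with a median ratio of 2.46 (range 1.22 to 3.51). In the same 22, day 2 replicate 2 lay below both untreated libraries. Among all genes past that ratio with a count in an untreated library, untreated replicate 1 was the higher in 84.6%, against 53.2% of all genes tested. In 24 members (26.7%) untreated replicate 1 held at least 1.5 times the CPM of replicate 2, against 4.06% of all genes, and in 59 (65.6%) the day 2 libraries lay within 1.5-fold of each other, against 90.9%. Among the 87 members that reached the minimum level in another group than day 2, 19 (21.8%) were past the ratio of 4, and all 19 were higher in untreated replicate 1. Another 64 members had a ratio under 2, with a median of 1.12 (range 0.416 to 1.89). Their ratio of untreated replicate 1 to replicate 2 had a median of 1.02 (range 0.584 to 1.68). Splits in opposite directions cancel in these medians, which therefore do not give the size of the differences. The remaining 4, at a ratio of 2 to 4, were Igll1, Endou, Car2 and Ablim1.

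**Figure D2:**
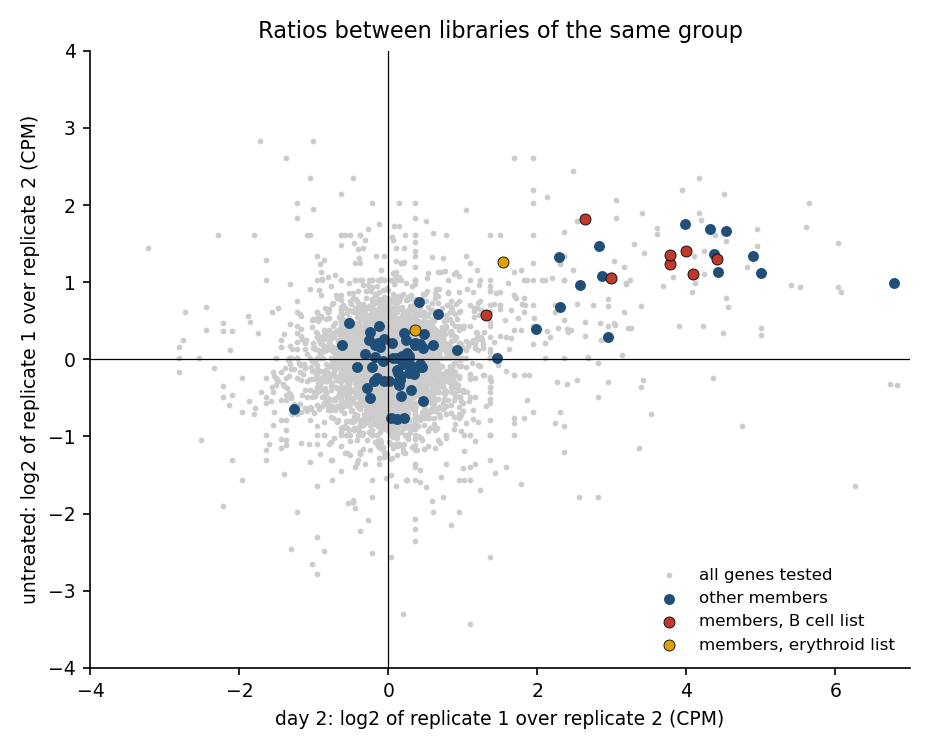
Ratio of replicate 1 to replicate 2 on a log2 scale, in the day 2 libraries (across) and the untreated libraries (up), for all genes tested (grey) and the members (coloured). Members of the B cell list lie to the right and above 0, as do the other members past a day 2 ratio of 4. Hbb-b1, with 0 counts in day 2 replicate 2, has no place on a log axis and is not drawn.

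The B cell genes were the largest named group, with 8 of the 19 genes tested on that list. Cd79a and Cd79b, the signalling chains of the B cell receptor, were both among them. Cd79b (chr11:106311341-106314562, GRCm38.p6) stood at 9.71 and 3.94 CPM in the untreated libraries, 24.9 and 1.17 at day 2, 1.27 and 1.66 at day 4 and 7.77 and 11.02 at day 6. The lowest of the 8 libraries was thus day 2 replicate 2, at about the day 4 level, and the highest was the other day 2 library. Cd79a stood at 11.24 and 4.78 CPM untreated, 18.5 and 1.35 at day 2, 1.18 and 2.34 at day 4 and 4.50 and 7.67 at day 6. For both the spread between the day 2 libraries was wider than any difference between group means.

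Vpreb1, Vpreb3 and Igll1 belong to the surrogate light chain and its assembly in pre-B cells. Vpreb1 stood at 10.9 and 3.10 CPM untreated, 12.3 and 1.97 at day 2, 1.36 and 1.27 at day 4 and 5.29 and 5.08 at day 6. Vpreb3 stood at 13.7 and 6.62, 22.7 and 2.87, 3.72 and 2.44, and 4.62 and 6.38 CPM, so its day 6 libraries lay below the lower untreated library. Igll1 (chr16:16860671-16863985), the gene of the lambda 5 chain, lies 4416 bases from Vpreb1. It stood at 21.0 and 14.2 CPM untreated, 18.7 and 7.54 at day 2, 2.18 and 1.07 at day 4 and 6.08 and 5.94 at day 6. Igll1 was the only B cell member that differed at day 6 from untreated cells by edgeR's quasi-likelihood test (log2 fold change −1.55, SE 0.37, adjusted p = 0.0037). Its level relative to Cd79b was 2.17 and 3.60 in untreated libraries, 0.750 and 6.46 at day 2, 1.71 and 0.647 at day 4, and 0.783 and 0.539 at day 6.

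Pou2af1, a B cell coactivator that works with octamer-binding factors, stood at 17.5 and 8.13 CPM untreated, 30.7 and 1.795 at day 2, 2.45 and 2.54 at day 4 and 6.08 and 7.02 at day 6. Fcrla, an intracellular Fc receptor-like protein of B cells, stood at 4.51 and 1.76, 16.0 and 1.17, 1.09 and 1.37, and 4.05 and 6.70 CPM. Members outside that list included Ighv5-4, a heavy chain V segment. It stood at 15.5 and 6.04 CPM untreated, 27.9 and 1.35 at day 2, 1.36 and 0.585 at day 4 and 5.86 and 6.27 at day 6. Igkv8-30 and the kappa constant region Igkc reached 27.0 and 40.6 CPM in day 2 replicate 1, against at most 3.12 CPM in day 2 replicate 2 and at day 4. Reads of V segments may be shared between near-identical copies, so the values of Ighv5-4 and Igkv8-30 are uncertain. Per kilobase of gene length, untreated mean levels of the 8 ran from 1.82 CPM (Fcrla) to 20.2 CPM (Igll1).

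The octamer is a short sequence known from promoters of B cell genes, and Vpreb3 was the only one of 57 members with a RefSeq promoter window (1.75%, against 1.56% of 9555 genes tested) to hold its letters ATTTGCAT on either strand. The window runs from 250 bases before to 50 after the start in the RefSeq table (GRCm38.p6, plus strand, chr10:75948050-75948349) and has the match in capitals.
Vpreb3: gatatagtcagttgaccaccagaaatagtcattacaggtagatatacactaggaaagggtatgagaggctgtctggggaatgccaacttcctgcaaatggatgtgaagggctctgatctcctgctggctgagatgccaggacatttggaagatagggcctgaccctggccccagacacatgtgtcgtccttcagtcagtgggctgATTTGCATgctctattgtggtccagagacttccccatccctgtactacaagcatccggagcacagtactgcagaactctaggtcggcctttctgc

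The other genes of the B cell list met the conditions of the rule in part. Of the 19 genes, 14 (73.7%) had untreated and day 6 means both at least 1.4 times the day 4 mean, against 293 (2.38%) of all genes tested. These ratios are part of the rule, which itself put the 8 members among the 14. No level was required here, and the list was chosen with earlier results of these data known. This share, like those of the other lists below, is therefore a description. Pax5, Ebf1 and Blk met every condition but the level, with highest group means of 2.63, 4.82 and 2.42 CPM. Spib, Rag2 and Iglc2 met the ratios and had overlapping libraries, and Cd37, Cd22, Rag1, Ms4a1 and Ly6d did not meet the ratios. Over the whole list the sums were 300.1 and 228 CPM in untreated cells, 427 and 198 at day 2, 186 and 197 at day 4 and 269 and 289.6 at day 6. Cd37, which other leukocytes also express, made up 150.1 to 187 CPM of each sum. Without Cd37 and Cd22 the list summed to 115.5 and 54.2 CPM untreated, 223 and 22.2 at day 2, 18.2 and 20.2 at day 4 and 62.2 and 86.0 at day 6. The 8 members alone summed to 96.1 and 45.4, 159.6 and 18.8, 14.3 and 13.6, and 42.0 and 54.5 CPM. No gene of the list was at 0 in any group. In such bulk libraries, fewer cells of a type and less RNA per cell cannot be told apart.

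Beside the B cell list, 15 further genes stood in the same block of 22 members. Cplx2, a regulator of vesicle fusion at synapses, stood at 5.96 and 2.35 CPM untreated, 10.7 and 0.359 at day 2, 0.908 and 0.683 at day 4 and 5.63 and 6.27 at day 6. Tmem132e, a transmembrane protein known from hearing, stood at 3.15 and 1.59 CPM untreated, 9.92 and 0.0898 at day 2 (86 counts and 1 count), 0.454 and 0.488 at day 4 and 1.01 and 2.05 at day 6. Il7r, the interleukin-7 receptor of early lymphocytes and the only member on the T and NK cell list, stood at 6.39 and 2.93, 14.4 and 0.449, 0.635 and 0.585, and 1.35 and 1.84 CPM. Each of these 3 was at its highest in day 2 replicate 1, while day 2 replicate 2 was below every untreated and day 6 library.

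Chst3, a sulphotransferase that modifies chondroitin, stood at 7.92 and 2.35 CPM untreated, 24.2 and 1.53 at day 2, 1.36 and 1.76 at day 4 and 3.38 and 5.62 at day 6. Sdc4, the heparan sulphate proteoglycan syndecan 4, stood at 11.7 and 7.29, 15.6 and 3.14, 0.999 and 1.17, and 2.70 and 3.03 CPM. Both had day 2 libraries on either side of the untreated ones. Snn, a small membrane protein, stood at 2.04 and 1.68 CPM untreated, 8.99 and 1.17 at day 2, 0.635 and 0.683 at day 4 and 3.49 and 4.32 at day 6. Scd1, which desaturates fatty acids, reached 28.3 CPM in day 2 replicate 1 and 3.86 CPM in day 2 replicate 2. Myl4, a myosin light chain, reached 15.9 and 2.24 CPM in these libraries, and Igfbp4, which binds insulin-like growth factors, 7.15 and 0.359 CPM. Cd72, a coreceptor of B cells, and Ptprcap, a partner of the phosphatase CD45, belong to the same block, although neither was on the B cell list.

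Early B cell factor (EBF) is a transcription factor that sets up the B cell programme. Its palindrome, TCCC and GGGA with any 2 bases between them, was found on either strand in the promoter windows of 4 of 57 members (7.02%), against 113 of 9555 genes tested (1.18%). The 4 were Chst3, Sdc4, Sgk1 and Tinagl1, of which Chst3 and Sdc4 are in the block of 22. Their windows (RefSeq, GRCm38.p6, both on the minus strand, Chst3 at chr10:60219211-60219510 and Sdc4 at chr2:164443139-164443438) have the match in capitals.
Chst3: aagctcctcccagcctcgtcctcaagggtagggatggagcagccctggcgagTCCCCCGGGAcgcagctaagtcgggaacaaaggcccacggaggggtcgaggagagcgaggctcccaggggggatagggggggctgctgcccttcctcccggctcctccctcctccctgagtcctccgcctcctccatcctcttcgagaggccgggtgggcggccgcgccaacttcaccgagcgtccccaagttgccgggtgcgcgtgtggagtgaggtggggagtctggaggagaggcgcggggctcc
Sdc4: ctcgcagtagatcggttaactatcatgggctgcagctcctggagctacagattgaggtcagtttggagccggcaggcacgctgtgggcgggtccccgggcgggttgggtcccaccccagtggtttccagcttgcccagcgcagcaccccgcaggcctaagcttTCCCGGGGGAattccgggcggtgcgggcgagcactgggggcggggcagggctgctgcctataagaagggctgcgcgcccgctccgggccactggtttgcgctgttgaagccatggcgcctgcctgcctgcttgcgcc
A match of letters is a description of the window and not a site. The PU.1 word GAGGAAGT was in 2 member windows (3.51%, against 4.02% of genes tested), those of Cd72 and Slco2b1.

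Only 5 of the 22 members of this block passed the test at day 4 against untreated and 2 at day 6 against day 4. None passed both by edgeR's test (2 did so at an unadjusted p under 0.05). Among the 64 members with a day 2 ratio under 2, 58 passed at day 4, 54 passed at day 6 against day 4, and 49 passed both. The test estimates the spread of each gene over all libraries, so a wide split at day 2 raises the error in these contrasts too. The blocks were cut by that split, so nothing is read from the difference between their counts. These 64 had day 4 means a median of 1.74-fold below untreated, from 1.403-fold to 15.1-fold, and the day 6 level was a median of 1.74-fold above day 4.

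Red cell genes were a smaller group, with Slc4a1 and Car2 from the erythroid list and the globin Hbb-b1, which was not on it. Slc4a1, the band 3 anion exchanger of red cells (chr11:102348820-102365281), stood at 0.766 and 0.587 CPM untreated, 0.115 and 0.0898 at day 2, 0.363 and 0.293 at day 4 and 6.19 and 4.11 at day 6. It had 1 count in each day 2 library, and its day 6 libraries stood above all others (day 6 over untreated log2 fold change 2.91, SE 0.38, edgeR quasi-likelihood adjusted p = 4.11e-05). Hbb-b1, a beta globin, stood at 4.34 and 1.76 CPM untreated, 1.96 and 0 at day 2, 0.545 and 1.56 at day 4 and 11.7 and 17.4 at day 6. It was also higher at day 6 than in untreated cells (log2 fold change 2.25, SE 0.59, edgeR adjusted p = 0.0057), although not without untreated replicate 2 or day 6 replicate 2 (adjusted p up to 0.0673). Reads of Hbb-b1 may be shared with the near-identical globin Hbb-bs. Car2, a carbonic anhydrase of red cells and other tissues, stood at 10.8 and 4.53 CPM untreated, 14.6 and 5.03 at day 2, 2.90 and 3.12 at day 4 and 7.54 and 8.43 at day 6, between the untreated libraries.

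Of the 8 erythroid genes tested, 7 met both ratios of the rule, against 2.38% of all genes tested. The rule itself put the members Slc4a1 and Car2 among the 7, so this share is a description. Hba-a1, Hba-a2, Hbb-bs, Klf1 and Alas2 met the ratios but not the overlap or level condition, and are not members. By edgeR's test 5 of the 8 were higher at day 6 than in untreated cells, against 32% of all genes. They were Hba-a1, Hba-a2, Hbb-bs, Alas2 and Slc4a1, with Tfrc lower. The list had a median log2 fold change of 2.22 at day 6, against −0.04 over all genes. Without Tfrc, the transferrin receptor, which dividing cells use widely, the erythroid genes summed to 25.3 and 11.15 CPM untreated, 23.1 and 7.45 at day 2, 6.35 and 9.75 at day 4 and 48.3 and 72.9 at day 6. The B cell list, in contrast, had a median of 0.16 at day 6, with Cd22 and Rag1 higher than in untreated cells and Igll1 lower. The part of marrow cells other than leukaemia cells in these levels, in the day 6 gate or any other, was not tested.

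**Figure D3:**
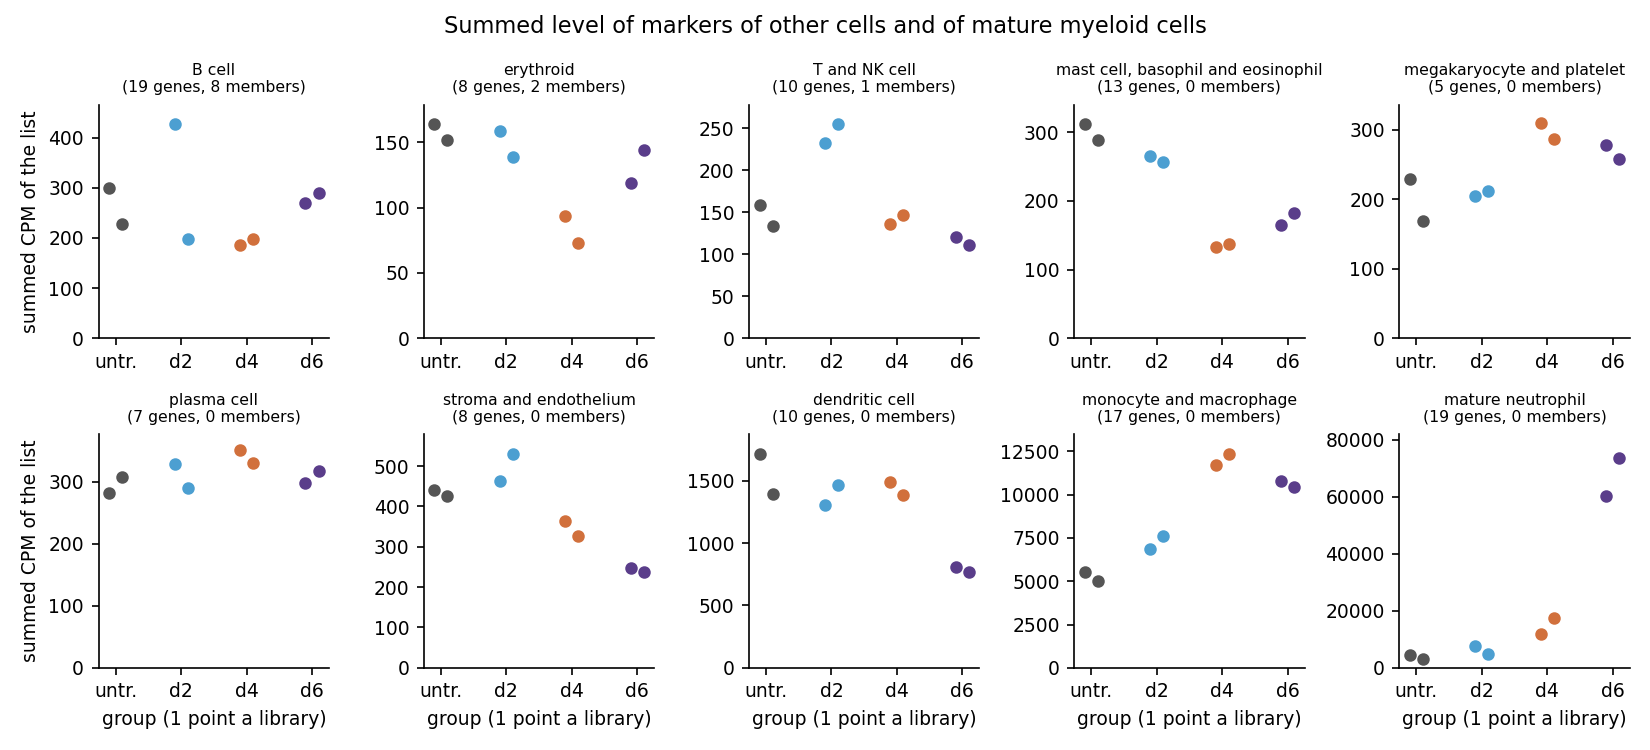
Summed CPM of 10 marker lists in each library (1 point a library, groups in time order, each axis from 0). B cell genes, most of whose sum is Cd37 in 7 of the 8 libraries, stand highest in day 2 replicate 1 at 427 CPM and lowest at day 4. Monocyte and macrophage genes and mature neutrophil genes are higher at days 4 and 6 than in untreated cells.

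The lists of other cells differed in how many genes met the ratios, against 2.38% of all genes tested. None of 17 monocyte and macrophage genes, 19 mature neutrophil genes and 5 megakaryocyte genes met both, and for lists of these sizes 0 is near that share. The mast cell, basophil and eosinophil list gave 1 of 13 (Gata2), the dendritic cell list 1 of 8 (Ccr7), the stroma and endothelium list 1 of 8 (Kdr) and the plasma cell list 2 of 6 (33.3%, Mzb1 and Irf4). On the T and NK cell list 2 of 8 (25%), Lck and Il7r, met them. None of these but Il7r is a member. In all, 11 members were on a marker list and 79 on none.

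The most abundant members lay outside all marker lists. Abca13, a large transporter of the ABC family (chr11:9191942-9684871), stood at 354 and 348 CPM untreated, 340.4 and 279.9 at day 2, 240.4 and 260.2 at day 4 and 427 and 476 at day 6. It lay above the untreated libraries at day 6 (log2 fold change 0.36, SE 0.10, edgeR adjusted p = 0.00656), with a sign that turned to −0.07 under scaling by total counts. Without day 6 replicate 2 its adjusted p was 0.0788. Ets1, a transcription factor of lymphoid and other blood cells, stood at 273 and 239 CPM untreated, 263 and 203 at day 2, 149 and 150.2 at day 4 and 245 and 274 at day 6. Its untreated and day 6 libraries overlapped, and its day 4 level of 149.7 ± 0.669 CPM (SD, n = 2) was the narrowest of the 4 groups.

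Hvcn1, a voltage-gated proton channel that works with the oxidase of phagocytes, stood at 238 and 199.98 CPM untreated, 212 and 180.0 at day 2, 122 and 144 at day 4 and 230.2 and 251 at day 6. Dgat2, which makes triglycerides, stood at 161 and 166.9, 185 and 153, 75.6 and 84.5, and 159 and 196 CPM. For both, the day 2 libraries overlapped the untreated ones, and the day 4 libraries were the lowest. Plcb2, a phospholipase that acts downstream of G protein-coupled receptors, stood at 138 and 156 CPM untreated, 141 and 129 at day 2, 100.1 and 98.8 at day 4 and 151 and 159.8 at day 6. Igf2r, the receptor that clears insulin-like growth factor 2 and carries enzymes to lysosomes (chr17:12682406-12769706), stood at 139 and 168.3, 103 and 107, 69.1 and 76.7, and 122 and 135 CPM. Unlike Plcb2, its day 2 and day 6 libraries all lay below its untreated ones. Per kilobase of gene length, the day 4 means of these 6 members ran from 8.16 CPM (Igf2r) to 47.0 CPM (Hvcn1).

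**Figure D4:**
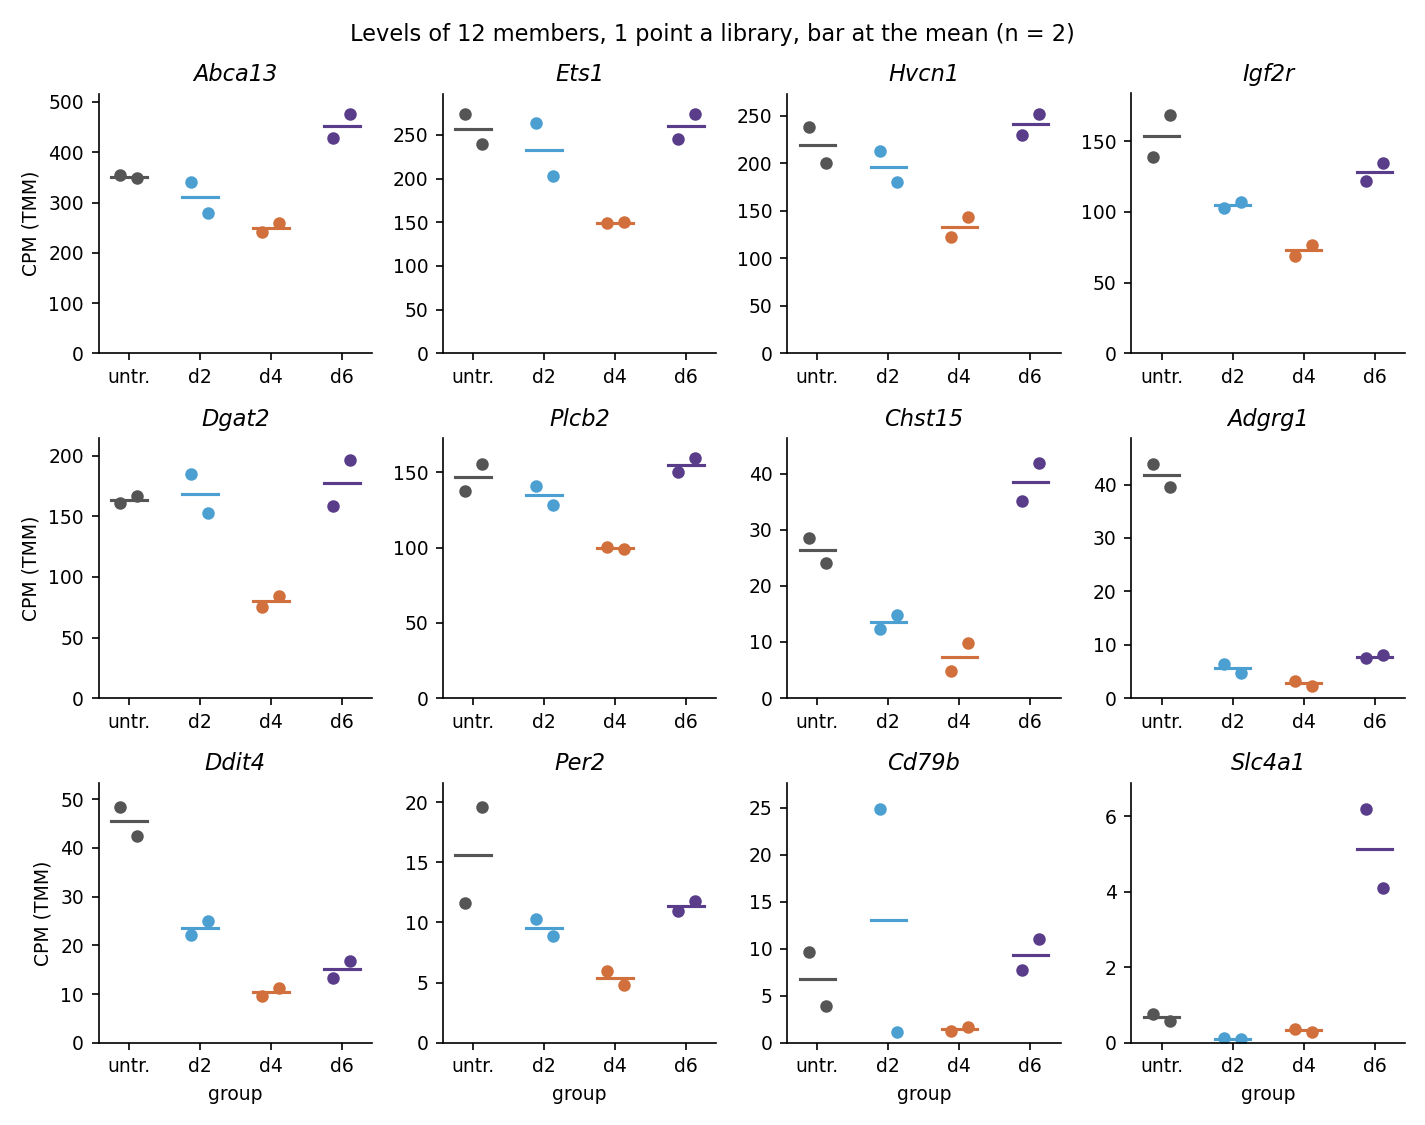
CPM of 12 members in each library (1 point a library, bar at the mean, n = 2, groups in time order, axes from 0). Adgrg1, Ddit4, Igf2r, Chst15, Abca13, Per2 and, at few counts, Slc4a1 are already below the untreated libraries at day 2. Ets1 and Hvcn1 have overlapping untreated and day 2 libraries, Cd79b splits at day 2, and Slc4a1 is high at day 6 alone.

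Lipid and iron genes gave 4 members. Apoe and Abca1, which carry and export cholesterol, were both higher at day 6 than in untreated cells. Apoe stood at 10.1 and 9.89 CPM untreated, 6.69 and 7.54 at day 2, 7.35 and 4.78 at day 4 and 18.02 and 17.6 at day 6 (day 6 over untreated log2 fold change 0.83, SE 0.18, edgeR adjusted p = 0.0017). Abca1 stood at 17.0 and 12.7, 11.9 and 12.9, 7.08 and 12.3, and 25.7 and 24.9 CPM (day 6 over untreated 0.77 on the log2 scale, SE 0.20, edgeR adjusted p = 0.0062, or 0.0564 without untreated replicate 2). Slc40a1, the iron exporter ferroportin, stood at 33.3 and 19.9 CPM untreated, 25.3 and 18.9 at day 2, 14.6 and 16.0 at day 4 and 36.9 and 40.7 at day 6, where its higher level (adjusted p = 0.0338 by edgeR) was not called without untreated replicate 2 or either day 6 library (adjusted p up to 0.246). In the lipid and fatty acid list 4 of 24 genes (16.7%) met both ratios (Scd1, Elovl6, Abca1 and Apoe), and in the oxidative stress and iron list 1 of 21 (4.76%, Slc40a1), against 2.38% of all genes tested. At day 6, 9 of the 24 lipid genes were higher and 7 lower than in untreated cells by edgeR's test, against 32% and 31.6% of all genes, with a median log2 fold change of −0.22 against −0.04 over all genes.

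Stress and clock genes gave 4 members. Ddit4, an inhibitor of mTORC1 that glucocorticoids and low oxygen induce, and Sgk1, a glucocorticoid-induced kinase, were the 2 of 12 glucocorticoid response genes that met both ratios. Per2 and Bhlhe40, repressors of the circadian clock, were the 2 of 14 clock genes that did. Per2 stood at 11.6 and 19.6 CPM untreated, 10.3 and 8.89 at day 2, 5.99 and 4.78 at day 4 and 10.9 and 11.8 at day 6. Bhlhe40 stood at 23.5 and 22.4, 18.9 and 23.5, 14.1 and 13.2, and 25.6 and 25.9 CPM, with overlapping day 2 and untreated libraries. At day 6 against untreated, 3 of 12 glucocorticoid response genes were higher and 7 lower by edgeR's test, with a median log2 fold change of −0.68. Of the 14 clock genes 1 was higher and 6 were lower, with a median of −0.16. Over all genes tested 32% were higher and 31.6% lower, with a median of −0.04. No gene met both ratios among 29 immediate early, 27 interferon response, 35 S phase, 31 G2 and M phase and 31 ribosome biogenesis genes, which for lists of these sizes is near the 2.38% of all genes tested. In all, 10 members were on a programme list and 69 on no list of either kind.

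Day 2 against untreated is the comparison closest to independent of the choice, although the untreated libraries helped to choose the members and the day 2 mean alone gave 3 of them their level. The untreated libraries were chosen as high against day 4, which tilts this comparison towards a lower level at day 2. By edgeR's quasi-likelihood test (adjusted p under 0.05), 6 members (6.67%) were lower at day 2, against 1.95% of all genes tested. None was higher, against 4.18% of all genes. At an unadjusted p under 0.05 these counts were 27 and 0, and DESeq2 gave 6 and 0. No share of all genes is given for these settings or for fits with a library left out, so their counts are a description. The 6 were Adgrg1, Chst15, Ddit4, Sgk1, Igf2r and Card6, all with steady day 2 libraries. The members' median log2 fold change was −0.16, against 0.00 over all genes, and 63 of the 90 lay below 0. Without day 2 replicate 1, the library that stood apart, 19 members were lower, and without untreated replicate 2 only 3. Without day 2 replicate 2, 11 members were higher.

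Adgrg1, a cell adhesion receptor found on haematopoietic stem cells (chr8:94974756-95014208), fell the most. It stood at 43.8 and 39.6 CPM untreated, 6.46 and 4.67 at day 2, 3.27 and 2.24 at day 4 and 7.54 and 7.997 at day 6. Its log2 fold change at day 2 was −2.92 (SE 0.17, edgeR adjusted p = 1.38e-05). Day 6 stayed far below untreated (log2 fold change −2.42, SE 0.16, edgeR adjusted p = 1.62e-07).

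Ddit4 (chr10:59949675-59951770) stood at 48.4 and 42.5 CPM untreated, 22.1 and 25.04 at day 2, 9.62 and 11.3 at day 4 and 13.4 and 16.9 at day 6, with no overlap between any pair of groups. Its log2 fold change was −0.94 at day 2 (SE 0.13, edgeR adjusted p = 0.00246) and −1.58 at day 6 (SE 0.14, edgeR adjusted p = 1.58e-06). Sgk1 stood at 26.1 and 34.0 CPM untreated, 17.1 and 20.8 at day 2, 9.80 and 12.2 at day 4 and 18.8 and 20.9 at day 6. It was lower at day 2 (log2 fold change −0.66, SE 0.16, edgeR adjusted p = 0.0341), with the call lost when any 1 of 4 libraries was left out (untreated replicate 2, day 2 replicate 1 or either day 6 library, adjusted p up to 0.19). At day 6 it was lower too (log2 fold change −0.60, SE 0.16, edgeR adjusted p = 0.0062), a call lost without untreated replicate 2 or day 6 replicate 1 (adjusted p up to 0.0586).

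Igf2r had a log2 fold change of −0.55 at day 2 (SE 0.10, edgeR adjusted p = 0.00977) and −0.26 at day 6 (SE 0.10, edgeR adjusted p = 0.0378). Of these calls, that at day 2 was lost without untreated replicate 2 (adjusted p = 0.0524), and that at day 6 without that library or either day 6 library (adjusted p up to 0.293). Igf2r overlaps the antisense RNA Airn, and strand is not stated for these counts, so their reads cannot be told apart. Card6, a protein with a caspase recruitment domain, named after its values were seen, stood at 62.5 and 55.8 CPM untreated, 39.0 and 42.1 at day 2, 35.8 and 39.9 at day 4 and 65.6 and 59.9 at day 6. Its day 2 level (log2 fold change −0.54, SE 0.10, edgeR adjusted p = 0.00896, or 0.0506 without day 2 replicate 1) overlapped its day 4 level. Card6 is the member among the 6 that did not differ by the test between day 6 and untreated cells (0.08 on the log2 scale, SE 0.10, edgeR adjusted p = 0.457).

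The E-box CACGTG, which clock and MYC-family factors are known to bind, was in the promoter windows of 11 of 57 members (19.3%), against 11.9% of genes tested. The window of Igf2r (RefSeq, GRCm38.p6, minus strand, chr17:12769657-12769956) has 2 of them, in capitals, and Sgk1 is another of the 11.
Igf2r: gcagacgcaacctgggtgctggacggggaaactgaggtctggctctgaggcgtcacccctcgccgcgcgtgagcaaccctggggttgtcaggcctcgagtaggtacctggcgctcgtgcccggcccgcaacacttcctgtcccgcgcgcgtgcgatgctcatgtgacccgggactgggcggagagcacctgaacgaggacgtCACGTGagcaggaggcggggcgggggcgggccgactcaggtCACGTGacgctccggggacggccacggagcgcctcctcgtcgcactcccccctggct

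Chst15, which sulphates chondroitin chains, was the member that crossed from lower to higher. It stood at 28.6 and 24.1 CPM untreated, 12.3 and 14.8 at day 2, 4.81 and 9.85 at day 4 and 35.1 and 41.8 at day 6, with no overlap between groups. Its log2 fold change was −0.95 at day 2 (SE 0.22, edgeR adjusted p = 0.031) and 0.55 at day 6 (SE 0.20, edgeR adjusted p = 0.0334). When single libraries were left out, the day 2 call was lost in 6 of 8 fits (adjusted p up to 0.105), all but those without a day 4 library, and the day 6 call in 3 (without untreated replicate 2 or either day 6 library, adjusted p up to 0.213).

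By day 2 most members still stood above their day 4 level. In 68 (75.6%) both day 2 libraries lay above both day 4 libraries, against 35.1% of all genes tested, and day 4 was below day 2 by edgeR's test in 62 (68.9%), against 15.9% of all genes. The day 4 libraries chose the members as low, so both counts are a description. In 35 members (38.9%) both day 2 libraries lay below both untreated libraries, against 23.2% of all genes tested, and 1 (1.11%) lay above them, against 25.5%. In all, 29 (32.2%) were at an intermediate level with no overlap on either side, against 10.5%. The rule placed the untreated libraries above the day 4 ones with no overlap, which leaves a gap for day 2 in every member. These counts are therefore a description as well. Clec4d, a lectin receptor of myeloid cells, and Phlda1, a pleckstrin homology protein, had day 2 libraries that overlapped the day 4 ones. Clec4d had 3.92 and 6.01 CPM at day 2 and 5.99 and 5.46 at day 4, and Phlda1 had 2.77 and 2.51 at day 2 and 2.09 and 4.19 at day 4.

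Whether the members came back to, under or over the untreated level at day 6 was not set by the rule, although the libraries of both groups chose the members. Genes that rose steadily or fell steadily through day 4 to day 6 could not be members. Members also had a lower median level (9.72 CPM, against 31.1 CPM in all genes tested). The shares of all genes below are therefore no like comparison, and lower shares among members are favoured by the choice. By edgeR's test 13 (14.4%) were higher at day 6 than in untreated cells, against 32% of all genes tested, and 17 (18.9%) were lower, against 31.6%. The 13 became 5 without day 6 replicate 2 and 8 without untreated replicate 2. The other 60 did not pass, which does not show that their levels were equal. The members' median log2 fold change was −0.07 (range −2.99 to 2.91), against −0.04 over all genes. In 21 members (23.3%) both day 6 libraries lay above both untreated ones, against 39.7% of all genes, and in 28 (31.1%) both lay below, against 42.4%. At day 6 against day 2, 24 members (26.7%) were higher by edgeR's test, against 30.5% of all genes, and 11 (12.2%) were lower, against 29.4%.

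**Figure D5:**
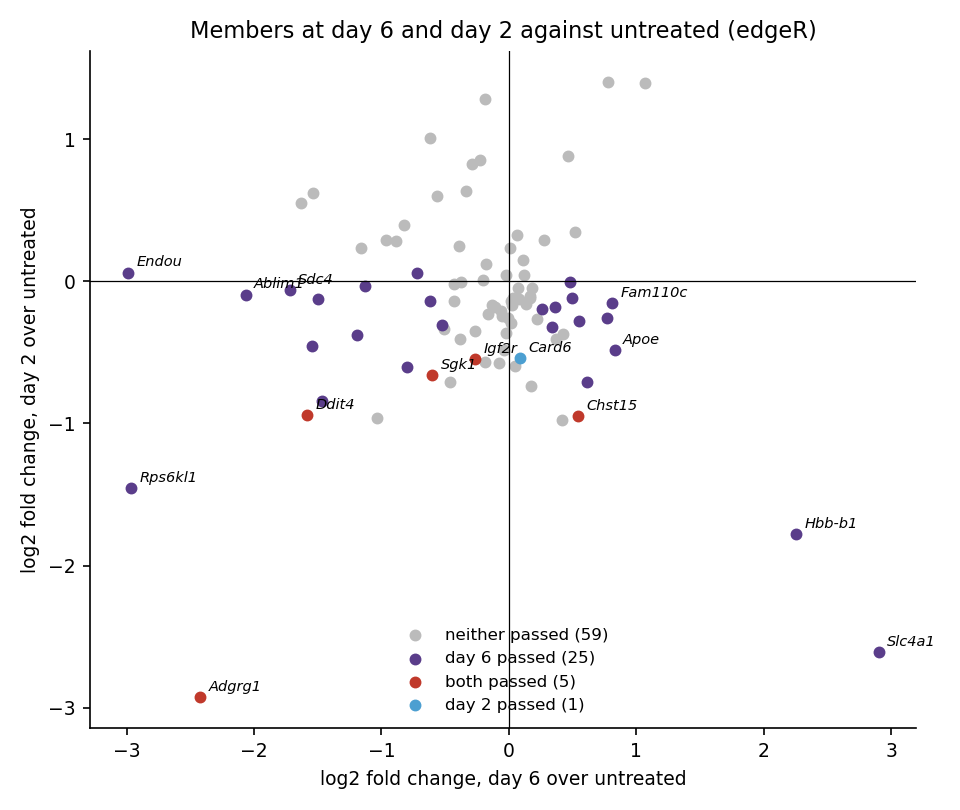
edgeR log2 fold change of the 90 members at day 6 over untreated (across) and at day 2 over untreated (up), coloured by which test passed at an adjusted p under 0.05. Chst15 is the only member lower at day 2 and higher at day 6 with both passing, and Adgrg1, Ddit4, Sgk1 and Igf2r are lower in both.

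The 5 members with the lowest day 6 level relative to untreated were Endou, Rps6kl1, Adgrg1, Ablim1 and Sdc4. Endou, an endoribonuclease, stood at 7.07 and 5.37 CPM untreated, 10.6 and 2.69 at day 2, 0.272 and 0.293 at day 4 and 0.788 and 0.756 at day 6 (day 6 over untreated log2 fold change −2.99, SE 0.63, edgeR adjusted p = 0.00144). It had 3 counts in each day 4 library and 7 in each day 6 library, so its ratio of 2.73 between those days rests on few reads. Rps6kl1, a kinase-like protein, stood at 4.77 and 7.46 CPM untreated, 1.27 and 3.05 at day 2, 0.454 and 0.390 at day 4 and 1.01 and 0.540 at day 6 (log2 fold change −2.97, SE 0.47, edgeR adjusted p = 0.000205). Ablim1, an actin-binding protein, stood at 12.6 and 12.4, 17.5 and 6.37, 1.54 and 1.85, and 2.70 and 3.24 CPM. Slco2b1, an organic anion transporter with one of the deepest dips, stood at 9.79 and 7.04, 3.81 and 5.48, 0.545 and 1.17, and 3.38 and 2.70 CPM. In Endou, Rps6kl1, Ablim1, Slco2b1 and Adgrg1 the day 6 libraries lay below every untreated library. Sdc4 was lower at day 6 as well (log2 fold change −1.72, SE 0.58, edgeR adjusted p = 0.023), a call lost without untreated replicate 1 or either day 6 library (adjusted p up to 0.129).

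Among the 13 members higher at day 6, Slc4a1, Hbb-b1 and Apoe were followed by Fam110c, a protein of the cytoskeleton. Fam110c stood at 16.4 and 17.6 CPM untreated, 17.8 and 13.1 at day 2, 10.7 and 12.2 at day 4 and 27.9 and 31.9 at day 6 (log2 fold change 0.81, SE 0.15, edgeR adjusted p = 0.000503). Its call held in every fit that left out a library, as did that of Apoe. The 13 ranged from 0.26 to 2.91 on the log2 scale. Under scaling by total counts only 3 members were higher at day 6 and 49 lower, with the median of all genes moved by −0.47. Of all 12330 genes tested, 2078 were higher and 6647 lower at day 6 under that scaling.

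The deposited gene length had a median of 2750 bases in members and 2761 in all genes tested. The median level over the libraries was 9.72 CPM in members, against 31.1 CPM in all genes tested. The median GC content of the promoter windows was 61.7%, against 60.7%. GATA motifs (AGATAA, either strand) were in 5 of 57 windows (8.77%), against 7.74% of genes tested. Chromosome 2 held 10 members (11.1%, against 7.60% of genes tested), and chromosomes 7 and 11 held 9 each (10%, against 7.77% and 8.18%). In 15 members the gene overlaps another counted gene, among them Snn with Txndc11, Myl4 with Cdc27, Hvcn1 with Tctn1 and Cd72 with Tesk1, so reads of both may be mixed there.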

How the data were processed

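The deposited tables, 1 for each library, give a raw count and a gene length in bases for every Entrez gene ID, per the file headers. Among tools, the submitters' processing notes list limma 3.22.0, edgeR 3.8.2, CASAVA 1.8.2 and featureCounts, with mm10 as the build. Aligner and strand setting: not given in the sources used here. At least 3 libraries hold 0.501 CPM or more of every deposited gene, so low genes had been removed before deposit.

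Symbols, coordinates and promoter windows came from RefSeq tables of GRCm38.p6, the same build. They named 89 of the 90 members, and 57 had a window. The members and all gene lists (11 of markers, 24 of programmes) were chosen with earlier results of these data known. Counts were scaled with TMM, which gives CPM. After filterByExpr, 12330 genes entered 1 group means fit in edgeR 4.0.16 (R 4.3.3, glmQLFit and glmQLFTest), with Benjamini-Hochberg adjustment over all of them and a threshold of 0.05. Each standard error was derived from the log2 fold change and the F value of its test. The scripts were tested on simulated data. Libraries of a group differed by more than sampling noise and none was treated as a copy. Errors of group means are the SD of n = 2.

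Genes named are Spi1, the 12 members with the deepest dip, the 6 with most counts, the 5 highest and 5 lowest at day 6 against untreated, the 5 largest falls and 3 largest rises at day 2, up to 3 members of each list, and 3 genes on either side of the limit. Of these, 1 member is not reported here. Other genes were named after their values were seen. Alternatives were other scalings (edgeR's RLE size factors, total counts), no filter, other thresholds, the test of DESeq2 1.42.0, a replicate block and each library left out.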

Additional observations from a re-analysis of the deposited data

Results flagged for a closer look

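By edgeR's quasi-likelihood test 35 of the 90 members (38.9%) differed between day 6 and day 2, which is the difference of their changes against untreated cells. Members higher at day 6 made up 26.7%, against 30.5% of all genes tested, and members lower made up 12.2%, against 29.4%. Chst15 is singled out as the member called against untreated cells on both days in opposite directions. It was higher at day 6 and lower at day 2. The difference of the day 6 and day 2 effects was 1.49 on the log2 scale (SE 0.22, edgeR quasi-likelihood adjusted p = 0.000124 over all genes tested). Chst15 was picked for its opposite calls, which already imply such a difference, so nothing is read from this p-value. Both day 6 libraries (35.1 and 41.8 CPM) lay above both untreated libraries (28.6 and 24.1 CPM), and both day 2 libraries (12.3 and 14.8 CPM) lay below them. The calls against untreated each depend on single libraries, as given above.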

How the results depend on the processing

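Under other settings the members were 97 with RLE size factors (90 shared), 102 under scaling by total counts (70 shared) and 88 with no filter. As a share of the 12830 deposited genes they were 0.701% as reported, 2.06% (264 genes) at a ratio of 1.2, 0.249% (32) at a ratio of 2, 1.77% (227) at a level of 1 CPM, 0.304% (39) at 20 CPM, and 0.701% to 1.29% with a library left out, the highest without day 4 replicate 2. Chosen after seeing the data, 79 members were on no marker list, 64 had a day 2 ratio of replicate 1 to 2 under 2, and 50 (0.390%) passed both contrasts. Under scaling by total counts 25 members were lower at day 2 (53 below untreated with no overlap), 3 were higher and 49 lower at day 6, and the B cell list had a day 6 mean of 240.5 CPM, against 279 with TMM. Of all 12330 genes tested, 658 were lower at day 2 under that scaling, and 2078 were higher and 6647 lower at day 6. The median log2 fold change of all genes at day 2 was −0.17 there. No share of all genes is given for the 53 without overlap, so that count is a description.

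With a library left out, 3 to 19 members were lower and 0 to 11 higher at day 2 (19 without day 2 replicate 1, 11 without day 2 replicate 2). At day 6 against untreated 5 to 14 were higher (5 without day 6 replicate 2, 8 without untreated replicate 2) and 13 to 24 lower, at day 4 51 to 84 were lower, and at day 6 against day 4 37 to 74 were higher (37 without day 6 replicate 2). Without day 2 replicate 1, 79 lay below untreated with no overlap, where 1 day 2 library remains and is assumed to vary like the other groups. No overlap is easier to meet with 1 library, and no share of all genes is given for it, so this count is a description. DESeq2 gave 6 lower at day 2, 10 higher and 14 lower at day 6, 62 lower at day 4 and 52 higher at day 6 against day 4.

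Among 1430 gene values of 55 members, 57 lost and 44 gained a call, 16 turned round with a call on either side, and 62 changed sign with none. Under scaling by total counts the day 6 log2 fold change was −0.072 (Abca13), −0.41 (Ets1), −0.30 (Hvcn1), −0.32 (Dgat2), −0.35 (Plcb2), −0.35 (Card6), −0.18 (Peg13) and −0.10 (Arap3). With a library left out, the day 2 value ranged from −2.98 to 1.38 (Ighv5-4), −2.70 to 1.89 (Igkv8-30), −3.49 to 1.37 (Cplx2), −2.53 to 1.87 (Cd79b), −2.58 to 1.84 (Igkc), −2.56 to 1.21 (Cd79a), −4.55 to 2.06 (Tmem132e) and −3.34 to 1.63 (Il7r), the lowest being without day 2 replicate 1 throughout. The cause was not tested.

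Deviations of replicate 1 correlated weakly between groups (−0.13 to 0.21), with the highest value between untreated and day 2. In those 2 groups the 22 members at a day 2 ratio of 4 or more were all higher in replicate 1. Whether replicate numbers pair the libraries was not tested further. With the replicate block 7 members were lower and 0 higher at day 2, 13 higher and 18 lower at day 6, 74 lower at day 4 and 63 higher at day 6 against day 4. Depth limits the members with few counts, such as Slc4a1 with 1 count in each day 2 library.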
